A study of Mus musculus with 23 samples.

Results

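Mouse embryonic stem cells labelled as lacking both RAS and the repressor ERF were moved from the naive medium 2iL to FA, which supplies FGF2 together with Activin A, and their RNA was compared between the 2 media. The comparison rests on the 3 FA and the 3 2iL libraries of this line, chosen by their labels, 6 of the 23 RNA-seq libraries of the study, and on the 20372 of 53607 gene rows with enough counts to test. All lines come from Raslox/lox cells, which are H-Ras-/-;N-Ras-/- and carry Ubiq-CreERT2, a Cre recombinase that 4-hydroxytamoxifen (OHT) switches on to delete the floxed RAS gene that is left. The line in question (the RAS/ERF line below) is labelled ERF KO and had received OHT for 6 days in both media. The 2iL cultures grew in N2B27 with the MEK inhibitor PD0325901, the GSK3 inhibitor CHIR99021 and LIF. The FA cultures spent 48 hours on fibronectin in 12 ng/ml FGF2, 20 ng/ml Activin A and 1% KOSR, a serum replacement. The other lines, used only for contrast, were ERF WT with RAS deleted by OHT (the RAS line), ERF KO with RAS present and no OHT (the ERF line), and ERF WT with RAS present and no OHT (the reference line). Each had 3 libraries per medium, except that the reference line had 2 in FA. Every RAS-deleted library had received OHT, so effects of the drug and of the deletion cannot be told apart. The labels do not say whether an ERF KO line is 1 clone, nor whether replicates were separate cultures. The p-values therefore measure only the spread between these libraries.

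RAS proteins pass signals from FGF and other receptors through RAF and MEK to the kinase ERK. ERF is an ETS-family repressor that leaves the nucleus and stops repressing when ERK phosphorylates it, so it acts mainly where ERK is silent. Naive mouse stem cells are held by LIF-STAT3 signalling, by a block of MEK and by release of target genes from Tcf7l1, and on leaving that state they shut down factors such as Klf4 and Tfcp2l1 and pass through a formative state marked by Fgf5 and Otx2.

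Libraries of the RAS/ERF line held 16.2 to 19.5 M counts in 2iL and 22.8 to 29.1 M in FA, within the 16.2 to 29.9 M of the whole series. One predicted gene, Gm26917, picked out with its values known, took 27.1 to 27.9% of the counts in 2iL and 19.6 to 21.4% in FA. Levels below are CPM, counts scaled to library size with TMM, a correction for unequal library composition. A gene was called when edgeR's quasi-likelihood test gave a Benjamini-Hochberg adjusted p under 0.05 and the change was at least 2-fold. Only called genes are said to rise or fall. The targeted Erf gene read 172, 153 and 129.8 CPM in 2iL and 49.3, 64.5 and 67.9 CPM in FA. It fell by 1.33 on the log2 scale (SE 0.13, edgeR adjusted p = 3.31e-08), and transcript remained in every library. A count over the whole gene does not show whether the protein is made, so it does not check the ERF KO label. Hras read 12.8, 12.0 and 12.7 CPM in 2iL and 23.9, 25.9 and 19.3 CPM in FA, an increase of 0.88 (SE 0.10) that did not reach 2-fold. Nras spread widely, from 5.32 to 52.3 CPM in 2iL and from 19.2 to 27.9 CPM in FA, and was not called. The residual Hras and Nras reads check no label either. Mras, a relative of the RAS genes outside the deletion, read 35.9, 37.0 and 36.2 CPM in 2iL and 0.87, 0.90 and 1.37 CPM in FA. It fell 35.0-fold (log2 change -5.13, SE 0.24, edgeR adjusted p = 3.5e-13).

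The move to FA changed 5076 of the 20372 genes tested (24.9%) in the RAS/ERF line. Of these, 2958 rose (14.5% of genes tested) and 2118 fell (10.4%). Without the fold minimum 11353 genes (55.7%) passed the adjusted p. At 8-fold or more, 696 genes rose and 284 fell. The CPM ranges of the 2 media did not overlap for 4960 of the called genes, and did not overlap for 65.2% of all genes tested. The median log2 change over all genes tested was 0.04, so list medians below are read against a value near 0. These are whole cultures, in which fewer cells of a type and less RNA per cell cannot be told apart.

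**Figure D1:**
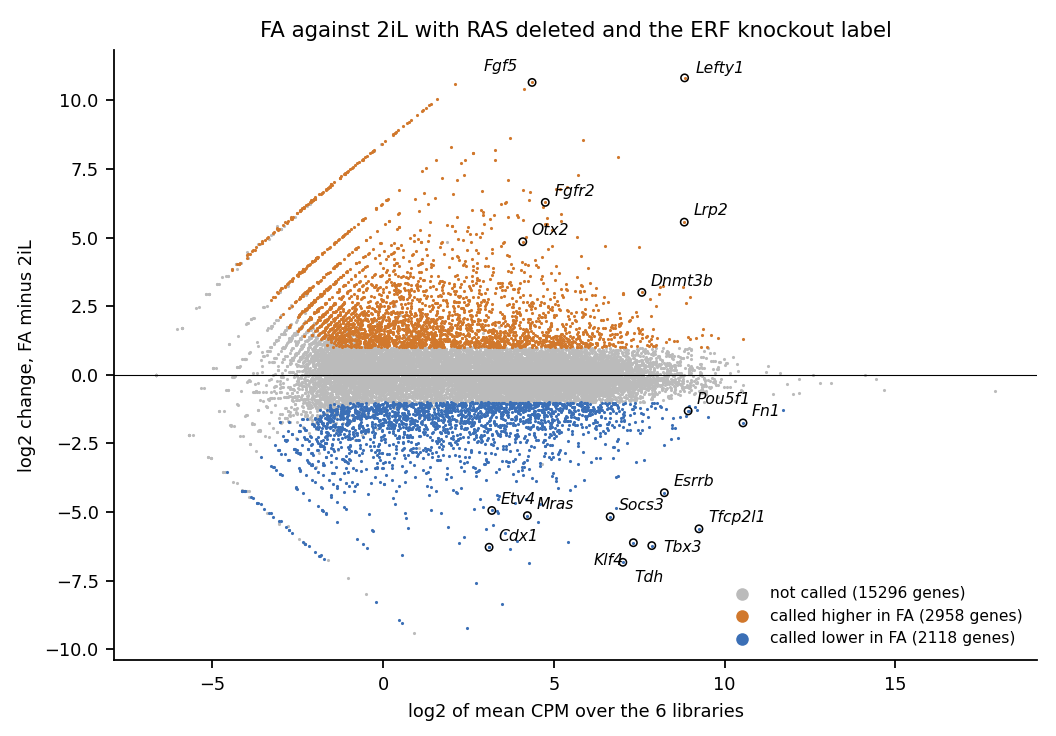
Log2 fold change, FA minus 2iL, in the RAS/ERF line (vertical axis) against the log2 of mean CPM over its 6 libraries (horizontal axis), 1 point per tested gene. The 2958 genes called higher and the 2118 called lower are coloured, grey points were not called, and named genes such as Lefty1 at 10.82 and Tdh at -6.83 are marked.

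Most naive factors fell. Of 18 naive factors tested, 15 fell, 1 rose and 2 were not called, with a median log2 change of -3.07 against the 10.4% of all genes that fell. Klf4, a Kruppel-like activator of the naive network, read 314, 302 and 336 CPM in 2iL and 4.89, 3.27 and 5.51 CPM in FA. It fell 69.3-fold (log2 change -6.12, SE 0.15, edgeR adjusted p = 2.26e-18). The CP2-family factor Tfcp2l1 read 1065, 1204 and 1308 CPM in 2iL and 23.8, 22.6 and 27.0 CPM in FA. Both genes are thus present at high level in every 2iL library and at a small remainder in every FA library, with no overlap. Tbx3, a T-box factor of the LIF response, read 439, 448 and 497 CPM in 2iL and 7.27, 5.84 and 5.31 CPM in FA, a 74.6-fold fall (log2 change -6.22, SE 0.31). Esrrb, the orphan receptor that GSK3 inhibition keeps on, went from 541, 586 and 595 CPM to 30.7, 26.9 and 30.2 CPM and fell 19.6-fold. Tdh, the mitochondrial threonine dehydrogenase of naive cells, read 255, 241 and 277 CPM in 2iL and 3.06, 2.33 and 1.24 CPM in FA, a 114-fold fall (log2 change -6.83, SE 0.46, edgeR adjusted p = 2.74e-09). Klf5 fell 9.07-fold, Nr5a2 13.5-fold and Klf2 3.54-fold.

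Of the 15 naive factors that fell, Nanog did so by the smallest fold. Nanog, the homeodomain factor of the core network, read 400.3, 378 and 352 CPM in 2iL and 169.7, 175 and 171 CPM in FA, a 2.19-fold fall (log2 change -1.13, SE 0.15, edgeR adjusted p = 1.82e-06). Zfp42 (Rex1), a zinc-finger marker of the naive state, went from 153, 125 and 143 CPM to 39.9, 28.0 and 32.7 CPM and fell 4.17-fold. Each kept a level in FA that was clear of zero in all 3 libraries. Gbx2 was the single naive factor that rose, from 6.2, 5.15 and 5.19 CPM to 14.1, 12.1 and 11.4 CPM (log2 change 1.18, SE 0.24). Among the 8 general pluripotency factors, 2 fell and 1 rose, against 10.4% and 14.5% of all genes. Pou5f1 (Oct4) read 669.8, 718 and 704 CPM in 2iL and 272, 282 and 288 CPM in FA (log2 change -1.31, SE 0.08, edgeR adjusted p = 4.82e-12), and its partner Sox2 fell 2.37-fold. Lin28a, the RNA-binding block on let-7 maturation, rose 7.79-fold, from 49.2, 67.2 and 67.3 CPM to 459, 507 and 463 CPM.

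The promoters of Nanog, Zfp42 and Sox2 are shown because they hold the octamer letters that Pou5f1 and its relatives read; they were picked after the search. The octamer was found in 2 of 12 windows of naive factors (Nanog and Zfp42), 1 of 6 of general pluripotency factors (Sox2), 2 of 12 of formative factors (Foxp1 and Pim2) and 1 of 15 of the ERK feedback list (Il17rd). The first 3 genes fell and the last 3 rose. The 250 bases before the RefSeq start in GRCm38.p6 are printed 5′ to 3′ on the gene's strand, in lower case. Capitals mark the octamer letters TTTGCAT (or ATGCAAA on the other strand) and, in Nanog, the SOX letters ACAATG. The Nanog window (chr6:122707239-122707488, plus strand, the more upstream of the starts the table gives) holds the octamer 75 bases and the SOX letters 67 bases before the start. The Zfp42 window (chr8:43307010-43307259, minus strand) holds the octamer 185 bases before its start, and the Sox2 window (chr3:34649745-34649994, plus strand) 99 bases before its start.
Nanog: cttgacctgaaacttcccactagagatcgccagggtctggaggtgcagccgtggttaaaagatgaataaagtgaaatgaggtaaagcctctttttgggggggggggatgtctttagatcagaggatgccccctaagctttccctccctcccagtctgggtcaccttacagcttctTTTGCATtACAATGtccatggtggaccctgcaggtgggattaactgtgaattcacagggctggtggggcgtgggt
Zfp42: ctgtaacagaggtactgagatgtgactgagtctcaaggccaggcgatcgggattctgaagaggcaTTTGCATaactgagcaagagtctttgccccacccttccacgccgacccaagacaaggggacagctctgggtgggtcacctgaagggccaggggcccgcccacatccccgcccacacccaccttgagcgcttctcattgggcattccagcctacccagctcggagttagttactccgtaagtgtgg
Sox2: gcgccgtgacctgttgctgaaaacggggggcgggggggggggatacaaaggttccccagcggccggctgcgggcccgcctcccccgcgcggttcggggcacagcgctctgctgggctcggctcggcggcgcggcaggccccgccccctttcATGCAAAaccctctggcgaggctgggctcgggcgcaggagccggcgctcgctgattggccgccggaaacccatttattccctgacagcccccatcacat
Searched on both strands of 300-base windows (250 before to 50 after the start), the octamer stood in 4.63% of all 32851 windows of the table, in 4.31% of the tested genes with a window, in 5.22% of those that rose and in 5.82% of those that fell. The SOX letters ACAATG stood in 12.6% of all windows, 9.55% of tested genes, 11.5% of rising genes and 9.74% of falling genes. The ETS letters CCGGAAG stood in 8.86% of all windows and in 17.3% of tested genes, but in 7.13% of rising and 10.4% of falling genes. The ETS letters were in none of the windows of the 4 lists searched, 12 of naive, 12 of formative, 6 of general pluripotency and 15 of ERK feedback genes. A match is only a run of letters, and its absence from this window says nothing of a factor's binding.

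Of 14 genes of the LIF, JAK and STAT3 pathway tested, 8 fell and 1 rose, with a median log2 change of -1.65, against the 10.4% of all genes that fell. Klf4, Klf5 and Tfcp2l1, 3 of the 8 that fell, and Gbx2, the 1 that rose, are also in the naive list and were counted there. The other 5, Jak1, Jak2, Il6st, Socs2 and Pim1, were not called; the shared receptor chain Il6st, at -0.95, lay just short of 2-fold and was called without 2iL replicate 1 (-1.02) or FA replicate 3 (-1.04) and with effective gene length as an offset. Socs3, the feedback inhibitor that STAT3 induces, read 181, 205 and 200.3 CPM in 2iL and 5.05, 5.27 and 6.01 CPM in FA, a 36.0-fold fall (log2 change -5.17, SE 0.20, edgeR adjusted p = 1.35e-13). Stat3 itself fell 4.47-fold, from 90.5, 95.4 and 99.5 CPM to 21.4, 18.3 and 24.1 CPM. Bcl3, a STAT3-induced co-activator, fell 25.1-fold and the receptor Lifr 3.29-fold. The labels name LIF for 2iL and not for FA, and its part in these falls was not tested.

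**Figure D2:**
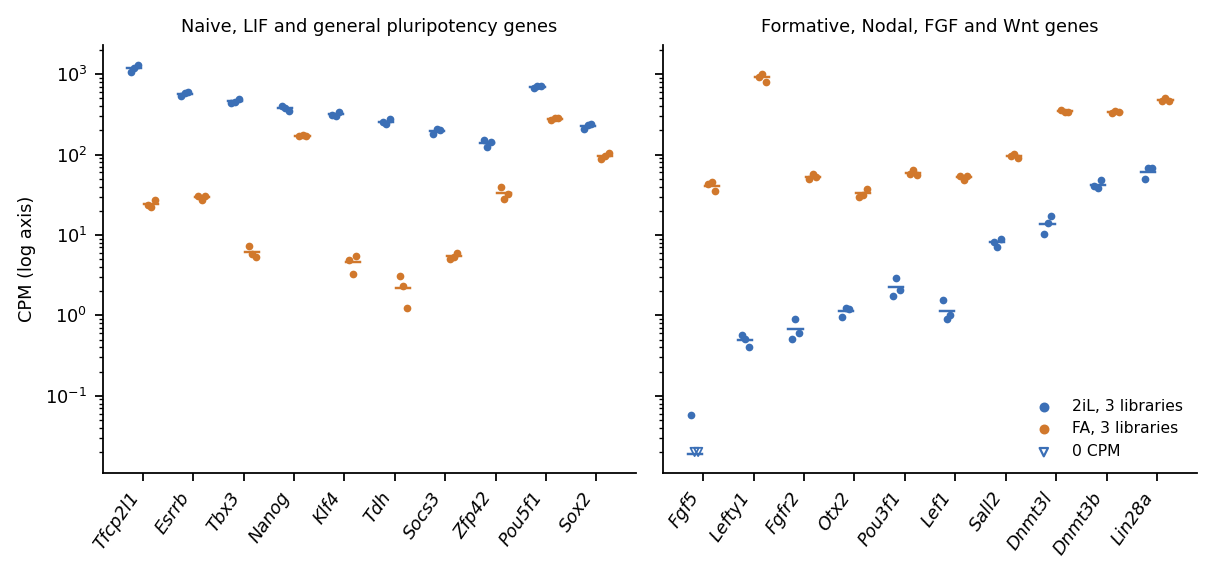
CPM on a log axis in each of the 6 libraries of the RAS/ERF line, 2iL and FA side by side, for naive, LIF and general pluripotency genes (left) and formative, Nodal, FGF and Wnt genes (right). Points are single libraries, open triangles stand for 0 CPM and short bars are group means; the 3 FA points of Klf4 lie between 3.27 and 5.51 CPM, and the 3 2iL points between 302 and 336 CPM.

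Of 20 formative and primed factors tested, 18 rose and 1 fell, with a median log2 change of 2.84 against the 14.5% of all genes that rose. Fgf5, the growth factor that marks the early epiblast, had 1 count over the 3 2iL libraries and read 42.7, 45.2 and 35.5 CPM in FA. The ratio was 2.07e+03, with a 95% counting interval of 371 to 8.16e+04. Otx2, the homeodomain factor that directs enhancers of the formative state, read 0.97, 1.23 and 1.21 CPM in 2iL and 29.5, 31.7 and 37.6 CPM in FA (28.9-fold, log2 change 4.85, SE 0.25, edgeR adjusted p = 9.43e-13). Its partner Pou3f1 (Oct6) went from 1.76, 2.91 and 2.09 CPM to 57.3, 63.8 and 56.1 CPM, a 26.0-fold rise. Sall2, a zinc-finger factor, rose 11.8-fold (log2 change 3.56, SE 0.10, edgeR adjusted p = 9.13e-18). The forkhead factor Foxp1 rose 7.57-fold. The single member that fell was Etv4, an ETS activator that is also an ERK target and is described with that group.

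Of 15 genes of DNA methylation and demethylation tested, 5 rose and 3 fell, against 14.5% and 10.4% of all genes. Dnmt3b, a de novo methyltransferase and also a member of the formative list, read 40.3, 38.9 and 47.9 CPM in 2iL and 332, 347 and 340.0 CPM in FA (8.03-fold, log2 change 3.00, SE 0.30, edgeR adjusted p = 3.16e-07). Dnmt3a rose 3.74-fold, and their catalytically inactive cofactor Dnmt3l rose 25.2-fold, from 10.4, 13.9 and 17.1 CPM to 359.5, 334 and 343 CPM. On the per-length scale (TPM), the 3 genes stood close together in 2iL, at 13.2 ± 1.63 for Dnmt3a, 11 ± 1.51 for Dnmt3b and 7.61 ± 1.84 for Dnmt3l. In FA they were spread out, at 60 ± 1.49, 99.2 ± 4.00 and 241 ± 24 TPM (SD, n = 3 each). The maintenance enzyme Dnmt1 stayed below the fold minimum, at -0.29. Among the TET dioxygenases, which remove the mark, Tet2 fell 3.31-fold while Tet3 rose 2.50-fold. Zfp57, which protects methylation at imprinted genes, fell from 569, 571 and 577 CPM to 111, 107 and 119.6 CPM (5.10-fold, log2 change -2.35, SE 0.09). Of 21 germline genes known to be silenced by promoter methylation, 6 fell and 1 rose (33.3% called, against 24.9% of all genes). The piRNA-pathway gene Asz1 fell 4.76-fold and the germ-cell RNA-binding gene Dazl 2.71-fold, while Tdrd1 rose 9.44-fold to 4.94 ± 0.79 CPM (SD, n = 3).

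Of 20 genes of the Nodal and Activin pathway tested, 10 rose and 3 fell, with a median log2 change of 0.84 (65% called, against 24.9% of all genes). Lefty1, a secreted inhibitor that Nodal signalling induces, read 0.57, 0.50 and 0.40 CPM in 2iL and 926, 1007 and 795 CPM in FA. It rose by 10.82 on the log2 scale (SE 0.23, edgeR adjusted p = 2.26e-18). Lefty2, its neighbour and close paralog, went from 1.25, 0.73 and 0.88 CPM to 253, 238 and 218 CPM, 246-fold. Reads that fit both Lefty genes are shared out by the quantifier, so the split between them is uncertain. Per length, Lefty1 stood at 664 ± 93.2 TPM and Lefty2 at 114 ± 17 TPM in FA (SD, n = 3). The ligand Nodal rose 2.96-fold, from 28.4, 23.1 and 27.1 CPM to 72.8, 78.8 and 81.1 CPM. Skil, a SMAD co-repressor, rose 4.91-fold and Foxh1, the SMAD2 partner that binds DNA, 2.53-fold. Tdgf1 (Cripto), the co-receptor for Nodal, fell 3.00-fold, from 428, 434 and 441 CPM to 155, 134 and 146 CPM. The type I receptor Acvr1b fell 2.22-fold and the type II receptor Acvr2b rose 2.57-fold.

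Of 14 FGF ligands, receptors and co-receptors tested, 5 rose, 3 fell and 6 were not called, against 14.5% of all genes higher and 10.4% lower. The ligand Fgf4 moved by -0.04 and the receptor Fgfr1 by 0.82 on the log2 scale, neither called. Fgfr2 read 0.51, 0.90 and 0.61 CPM in 2iL and 50.2, 57.4 and 51.9 CPM in FA, a 78.0-fold rise (log2 change 6.29, SE 0.38, edgeR adjusted p = 1.45e-10). Fgf8, an epiblast and primitive-streak ligand, rose from 0.28, 0.50 and 0.13 CPM to 37.6, 37.5 and 27.3 CPM. Fgf15 rose 50.5-fold. Fgfr4 fell 3.89-fold, and the heparan sulphate proteoglycan Sdc4, a co-receptor, fell 13.3-fold. Per length in FA, Fgfr1 stood at 58.0 ± 6.30, Fgfr2 at 22 ± 1.30, Fgfr3 at 2.71 ± 0.39 and Fgfr4 at 0.45 ± 0.07 TPM (SD, n = 3 each). These 4 levels are in that order with no overlap between neighbours. In 2iL the order was Fgfr1 at 26.7 ± 3.96, Fgfr4 at 1.72 ± 0.08, Fgfr3 at 0.67 ± 0.26 and Fgfr2 at 0.23 ± 0.04 TPM.

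The genes that report ERK activity split. Of 24 feedback and target genes tested, 6 rose and 6 fell, against 14.5% and 10.4% of all genes. The median log2 change was 0.23 and rested on single libraries, at 0.11 without 2iL replicate 3 and 0.09 without FA replicate 2. Of the falls, Etv4 was the largest, from 18.2, 14.2 and 20.4 CPM in 2iL to 0.52, 0.41 and 0.79 CPM in FA (30.7-fold, log2 change -4.94, SE 0.27, edgeR adjusted p = 4.52e-12). Of the Sprouty inhibitors of receptor signalling, Spry4 and Spry2 fell and Spry1 was not called (log2 change -0.06, edgeR adjusted p = 0.736). Spry4 went from 5.01, 4.70 and 6.47 CPM to 0.64, 0.69 and 0.54 CPM, 8.51-fold, and Spry2 from 78.6, 93.9 and 85.5 CPM to 25.1, 24 and 26.1 CPM, 3.43-fold. Junb fell 4.41-fold, Fos 3.04-fold and Phlda1 2.34-fold. Genes of the same list rose beside them. Dusp6, the phosphatase that acts on ERK itself, read 9.28, 10.5 and 10.6 CPM in 2iL and 22.5, 22.7 and 25.3 CPM in FA (2.33-fold, log2 change 1.22, SE 0.22, edgeR adjusted p = 0.000118). Il17rd (Sef), another membrane inhibitor of FGF signalling, rose 2.77-fold, from 53.1, 55.4 and 56.1 CPM to 149, 162 and 146 CPM. Myc rose 8.58-fold, from 1.48, 1.68 and 1.15 CPM to 13.4, 13.6 and 10.4 CPM. Ccnd1, a cyclin of the G1 phase, rose 5.14-fold, with 43.0 CPM in FA replicate 3 against 69.2 and 70.5 CPM in the others. Dusp5 rose 4.98-fold and the ETS factor Etv1 4.47-fold. Etv5 moved by -0.32 and Egr1 by 0.31, and neither was called.

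Wnt and beta-catenin targets moved in both directions. Of 17 tested, 8 rose and 3 fell, with a median log2 change of 1.06 (64.7% called, against 24.9% of all genes). The transcription partner Lef1 read 1.54, 0.90 and 1.01 CPM in 2iL and 54.3, 48.8 and 54.4 CPM in FA, a 45.3-fold rise (log2 change 5.50, SE 0.62). Tcf7l1 (Tcf3), the repressor of naive genes that GSK3 inhibition removes, rose from 35.0, 31.1 and 32.1 CPM to 107, 105 and 119.6 CPM (3.38-fold, log2 change 1.76, SE 0.14, edgeR adjusted p = 1.38e-09). Cdx1, a caudal homeobox target of Wnt, fell 77.7-fold, from 18.6, 16.2 and 16.1 CPM to 0.26, 0.24 and 0.12 CPM. The list holds both activated targets and the TCF factors themselves, so its median is not a reading of pathway activity. Of 15 BMP and Id genes tested, 4 fell and 1 rose (33.3% called, against 24.9% of all genes). Bmp4 fell 6.87-fold, Id4 4.90-fold and Bmp7 3.56-fold. The 1 that rose was Smad6, an inhibitor of the pathway, whose log2 change of 1.02 dropped to 0.90 when effective gene length was an offset and to 0.94 without FA replicate 1, 0.98 without 2iL replicate 3 and 0.995 without 2iL replicate 1.

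**Figure D3:**
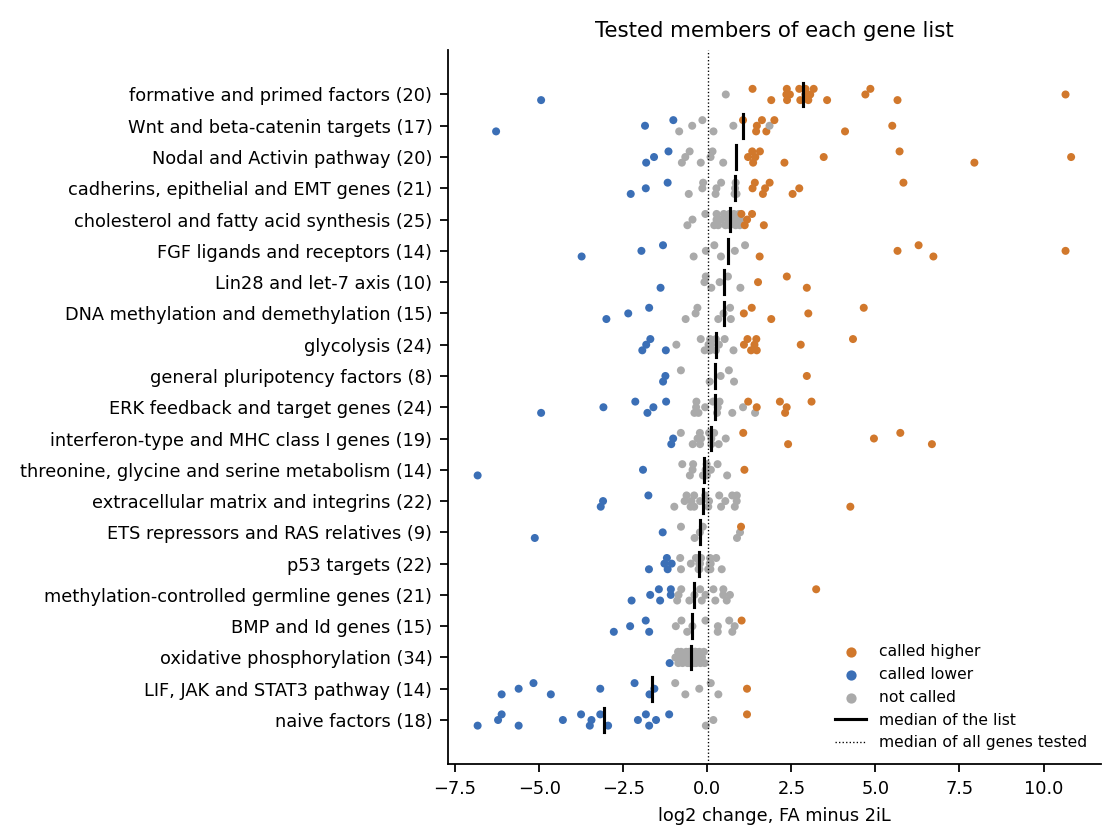
Log2 fold change, FA minus 2iL, for every tested member of each gene list (points) with the list median (bar), and with the median of all genes tested marked as a line. Naive factors lie mostly below 0 with a median of -3.07 and formative factors mostly above with a median of 2.84, whereas ERK feedback genes lie on both sides.

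Of 24 glycolysis genes tested, 8 rose and 4 fell, against 14.5% and 10.4% of all genes. The glucose transporter Slc2a1 (Glut1) read 59.5, 55.2 and 58.6 CPM in 2iL and 433, 433 and 324 CPM in FA, a 6.87-fold rise (log2 change 2.78, SE 0.26, edgeR adjusted p = 9.7e-08). The lactate exporter Slc16a3 rose 20.2-fold and the lactate dehydrogenase subunit Ldha 2.65-fold. The hexokinases fell, Hk1 by 3.82-fold and Hk2 by 2.35-fold. All 34 oxidative phosphorylation genes tested had a negative change and 30 passed the adjusted p, where 51.8% of all genes had a positive change and 55.7% passed. Only Cox5a (2.17-fold lower) was called, 2.94% of the list against 24.9% of all genes, and the list's median was -0.48. Of 25 cholesterol and fatty acid synthesis genes tested, 5 rose and 0 fell by edgeR and by DESeq2, and the 20% called lay below the 24.9% of all genes. With no fold minimum 21 had a positive change past the adjusted p and 2 a negative one. Fasn, the fatty acid synthase, went from 342, 291 and 317 CPM to 1108, 1090 and 849.7 CPM, 3.21-fold. The labels name serum replacement for FA and not for 2iL, and its part in these changes was not tested. In threonine, glycine and serine metabolism 2 of 14 fell and 1 rose (21.4% called), with Tdh far the largest.

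Of 21 cadherin, epithelial and EMT genes tested, 8 rose and 3 fell, against 14.5% and 10.4% of all genes. Zeb2, a repressor of epithelial genes, rose from 0.40, 0.22 and 0.34 CPM to 17.4, 20.6 and 17.5 CPM (57.1-fold, log2 change 5.83, SE 0.53). E-cadherin (Cdh1) fell 2.26-fold, from 378, 404 and 379.8 CPM to 173, 167 and 173 CPM, and N-cadherin (Cdh2) rose 6.66-fold to 13.1 ± 1.76 CPM (SD, n = 3). The epithelial adhesion gene Epcam rose 3.29-fold at the same time. Of 22 matrix and integrin genes, 3 fell and 1 rose, and the 18.2% called lay below the 24.9% of all genes. Fibronectin (Fn1) read 2126, 2387 and 2370 CPM in 2iL and 647, 607 and 791 CPM in FA, a 3.36-fold fall. The labels name fibronectin-coated plates for FA. Nid1, a basement membrane linker, fell 8.57-fold.

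Among 10 genes of the Lin28 and let-7 axis, 3 rose and 1 fell (40% called, against 24.9% of all genes). Lin28b rose 5.15-fold. Among 22 p53 targets, 5 fell and 0 rose by edgeR and by DESeq2 (1 higher at an unadjusted p under 0.05), and the 22.7% called lay near the 24.9% of all genes. Those that fell include the cell-cycle inhibitor Cdkn1a (2.42-fold) and the death receptor Fas (3.33-fold). Of 19 interferon-type and MHC class I genes, 5 rose and 2 fell (36.8% called). Irf1 rose 5.29-fold, from 18.6, 18.1 and 20.5 CPM to 107, 97.3 and 98.1 CPM, and the immunoproteasome subunit Psmb8 rose from 0.17, 0.22 and 0.07 CPM to 10.3, 8.53 and 7.50 CPM.

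Apart from the fixed lists, the genes with the largest changes were named by rule. Those with 3 or fewer counts in 2iL cannot be ranked by their fitted change. On the rising side the rule named Lefty1, Fgf5 and Vrtn, a vertebral number gene with 1 count in 2iL and 34.8, 36.0 and 33.5 CPM in FA (ratio 1.75e+03, 95% counting interval 314 to 6.9e+04). The chemokine gene Cxcl12 rose 228-fold. Xist, the RNA that silences an X chromosome in female cells, had 3 counts over the 3 2iL libraries and a mean of 19.2 CPM in FA (ratio 322, interval 110 to 1.56e+03). The interferon-induced gene Oasl2 also had 3 counts in 2iL and a mean of 26.0 CPM in FA (ratio 436, interval 149 to 2.11e+03). Intervals cover counting error only. On the falling side Lrrc31, a leucine-rich repeat gene, led with 31.6, 37.9 and 46.3 CPM in 2iL and 0.19, 0.49 and 0.33 CPM in FA, 116-fold. Inhbb, the activin B subunit, fell 82.0-fold and the glycerol channel Aqp3 68.1-fold. The betaine and dimethylglycine enzymes Bhmt and Dmgdh fell 49.3-fold and 53.8-fold. By smallest adjusted p, the leading genes besides Lefty1, Klf4 and Sall2 included Jak3, a cytokine-receptor kinase (8.28-fold lower), Map1b, a microtubule-associated protein (4.39-fold higher, adjusted p = 5.02e-17), and Ski, a SMAD co-repressor (3.25-fold higher), all by edgeR.

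Markers of other cell types were followed by their summed CPM, and the counts of called members stand against 14.5% of all genes higher and 10.4% lower. Primitive and visceral endoderm markers summed to 43.4 to 55.0 CPM in the 2iL libraries and 876 to 976 CPM in FA, and 6 of 13 rose and 2 fell. Lrp2 (megalin) made up nearly all of the sum in FA and a smaller part of it in 2iL, with 19.9, 16.9 and 19.3 CPM in 2iL and 897, 931 and 826 CPM in FA (47.3-fold, log2 change 5.57, SE 0.23, edgeR adjusted p = 1.13e-12). Among the other risers, the lipoprotein gene Apob rose 9.64-fold to 6.17 ± 0.51 CPM and Dab2, an endocytic adaptor, 2.5-fold to 11.8 ± 0.61 CPM (SD, n = 3 each). The 2 that fell were the regulators Hnf4a (log2 change -1.53) and Sox17 (-1.39). Gata6 (-0.73), Gata4 (-0.46) and Foxa2 (0.515) were not called. Ttr and Afp were at 3 counts or fewer in every library. Early neural markers went from 63.6 to 67.0 CPM in 2iL to 206 to 214 CPM in FA, with 5 of 11 higher and 0 lower by edgeR, at an unadjusted p under 0.05 and by DESeq2 alike. Pax6 rose from 0.68, 0.39 and 0.47 CPM to 30.5, 30 and 28.8 CPM and Sox1 4.46-fold, while Hes5 and Neurog2 were at 3 counts or fewer throughout. Mesoderm and definitive endoderm markers summed to 27.7 to 28.3 CPM in 2iL and 28.1 to 31.1 CPM in FA, while 4 of 14 rose and 4 fell. Wnt3 rose 18.6-fold to 4.18 ± 0.80 CPM (SD, n = 3), Mesp2 fell by 2.66 on the log2 scale, and Mesp1 and Cer1 were at 3 counts or fewer. Trophoblast markers went from 138 to 159 CPM down to 49.7 to 60.8 CPM, with 6 of 15 lower and 2 higher. The falls were led by Tead4 (10.1-fold, log2 change -3.34), Gata2 (-2.895) and Tfap2c (7.27-fold, -2.86). The genes that rose were Gata3 (log2 change 5.00), the largest change of the list, and Hand1 (3.30). Of the 11 genes of the early-embryo (2-cell-like) list, 0 were called by edgeR or DESeq2 and 0 had an unadjusted p under 0.05, and their sum spread from 110 to 281 CPM in 2iL and from 94.3 to 232 CPM in FA. Fibroblast markers summed to 16.3 to 23.9 CPM in 2iL and 13.7 to 15.6 CPM in FA, while 2 of 6 rose and 1 fell. Col1a2 rose by 4.26 on the log2 scale to 1.60 ± 0.49 CPM (SD, n = 3), Pdgfrb fell 4.06-fold, and Dcn, with 0 counts in 2iL, reached 0.97 CPM in FA, at least 16.2-fold higher by a floor of 3 counts over the group. Col3a1, Postn and Lum were at 3 counts or fewer. The part that endoderm-type or neural-type cells have in the gene changes above was not tested.

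The response of the RAS/ERF line was next set against that of the RAS line, the same move to FA with ERF present. The difference between the 2 responses was called for 2308 genes (11.3%), 1138 of them higher (5.59%) and 1170 lower (5.74%) in the RAS/ERF line. The 3 comparisons of responses that follow share the libraries of the RAS/ERF line. The FA libraries of the RAS line stood apart from each other, with a chi-square per degree of freedom of 9.92, 22 and 44.9 between pairs, against 5.26 to 13.3 in the RAS/ERF line. Leaving out replicate 1, 2 or 3 of them gave 2195, 2174 or 2509 genes. For the naive factors, the difference was called lower for 13 of 18 and higher for 2, with a median of -2.02. Klf4 went from 229 ± 6.98 to 38 ± 7.35 CPM in the RAS line (SD, n = 3), where the RAS/ERF line ended at 4.56 ± 1.16 CPM. The difference in response was -3.52 (SE 0.18, edgeR adjusted p = 1.22e-11). Esrrb ended at 193 ± 24.9 CPM in the RAS line against 29.3 ± 2.09 CPM, and the difference was -3.24 (SE 0.19). Zfp42 stood at 285 ± 32.2 and 366 ± 69.7 CPM in the 2 media in the RAS line, not called, and the difference was -2.42 (SE 0.25). Sox2 differed by -1.30 (SE 0.16), whereas the difference for Nanog, -0.84, did not reach 2-fold (-1.03, called, without FA replicate 3 of the RAS line). The formative factors differed in 9 of 20 upward and 1 downward. Dnmt3b ended at 118 ± 63.7 CPM in the RAS line against 340 ± 7.07 CPM (difference 1.82, SE 0.41, edgeR adjusted p = 0.00325). The 3 FA libraries of the RAS line read 62, 105 and 187 CPM, all below the RAS/ERF line, and the difference was 1.51 without the first and 2.32 without the last. Pou3f1, at 4.38, 9.44 and 19.2 CPM in those libraries, differed by 2.78 (SE 0.63; 2.41 without the first and 3.45 without the last) and Sall2 by 2.49 (SE 0.13). The ERK list differed in 6 genes upward and 3 downward. Il17rd fell in the RAS line, from 35.5 ± 1.68 to 17.6 ± 3.09 CPM, and rose in the RAS/ERF line, a difference of 2.49 (SE 0.14, edgeR adjusted p = 2.22e-11). Spry2 fell in both, but less in the RAS/ERF line (difference 1.74, SE 0.21). Etv4 fell in both and further in the RAS/ERF line (difference -1.90, SE 0.36). Zfp57 and Gadd45b, a demethylation-linked stress gene, were not called in the RAS line, with differences of -2.24 (SE 0.13) and -3.09 (SE 0.24).

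Against the ERF line, which shares the ERF KO label and keeps RAS, the difference was called for 936 genes (4.59%), 466 higher (2.29%) and 470 lower (2.31%). In the naive and the formative list alike, 1 gene was higher and 1 lower, of 18 and 20 tested. For Klf4 the difference was -0.40 (SE 0.19, edgeR adjusted p = 0.178), for Esrrb 0.21 (SE 0.19) and for Dnmt3b 0.23 (SE 0.40), none called; a p above the threshold does not show that the responses were equal. Of the ERK list, 9 of 24 were lower in the RAS/ERF line and 0 higher by edgeR (1 higher at an unadjusted p under 0.05, and 10 lower and 1 higher by DESeq2), against 2.31% of all genes lower. Etv4 read 20.7 ± 1.56 CPM in 2iL and 24 ± 2.14 CPM in FA in the ERF line (SD, n = 3), and the difference was -5.15 (SE 0.33, edgeR adjusted p = 5.41e-09). Dusp6 reached 110 ± 9.20 CPM in FA in the ERF line against 23.5 ± 1.54 CPM (difference -2.19, SE 0.31), and Spry4 rose in the ERF line and fell in the RAS/ERF line (difference -4.39, SE 0.34). Tbx3 fell further in the RAS/ERF line (difference -2.35, SE 0.37). Some genes responded more. Fgfr2 reached 8.79 ± 0.77 CPM in FA in the ERF line against 53.2 ± 3.80 CPM (difference 4.25, SE 0.56, edgeR adjusted p = 0.000129). Lefty1 differed by 2.14 (SE 0.43) and Slc2a1 by 1.57 (SE 0.35).

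Against the reference line, in which neither factor was altered beyond what all lines share, 1538 genes differed (7.55%), 808 higher (3.97%) and 730 lower (3.58%). Of the ERK list, 11 of 24 were lower and 2 higher. Spry4 read 0.59 ± 0.05 CPM in 2iL (SD, n = 3) and 31.9 ± 8.99 CPM in FA (SD, n = 2) in the reference line, and the difference was -8.82 (SE 0.39, edgeR adjusted p = 3.67e-13). Dusp6 differed by -3.03 (SE 0.32), Etv4 by -4.54 (SE 0.34), Spry2 by -2.41 (SE 0.20) and Myc by -3.76 (SE 0.77). Nanog fell less in the RAS/ERF line, where it ended at 172 ± 3.00 CPM against 96.8 ± 4.61 CPM (difference 1.51, SE 0.22, edgeR adjusted p = 7.87e-05), although it also started lower, at 377 ± 24.3 against 606 ± 21.4 CPM. Of the 18 naive factors, 4 differed upward and 3 downward, with a median difference of -0.05. Prdm14, a naive factor that restrains FGF signalling, differed by 2.12 (SE 0.43) and Tbx3 by -2.45 (SE 0.39). Of the 20 formative factors, 3 differed upward and 4 downward, with a median of 0.01. Otx2 differed by 2.44 (SE 0.34) and the SOX factor Sox11 by -1.80 (SE 0.24). Of the endoderm markers, 10 of 13 were lower and 1 higher. Tcf7l1 differed from all 3 lines. It was called higher in FA in the RAS/ERF line and was not called in the other 3, and the difference was 1.11 (SE 0.19) from the RAS line, 1.47 (SE 0.20) from the ERF line and 2.38 (SE 0.21) from the reference line. Its 2iL level was 32.7 ± 2.01 CPM in the RAS/ERF line and 36.6 ± 1.22 CPM in the ERF line, below the 103 ± 8.47 CPM of the RAS line and the 87.5 ± 18.9 CPM of the reference line (SD, n = 3 each). In FA the RAS line stood highest, at 161 ± 6.40 CPM, above 111 ± 7.78 CPM in the RAS/ERF line, 44.7 ± 2.58 CPM in the ERF line (SD, n = 3 each) and 56.9 ± 17.2 CPM in the reference line (SD, n = 2). Lrp2 also differed from all 3, by 2.36 (SE 0.28), 2.00 (SE 0.28) and 2.48 (SE 0.30), although it also started lower in the RAS/ERF line. Its 2iL libraries read 16.9 to 19.9 CPM there. They read 53.6 to 60.9 CPM in the RAS line, 24.7 to 32.0 CPM in the ERF line and 57.5 to 60.5 CPM in the reference line. In FA it read 826 to 931 CPM in the RAS/ERF line. The RAS line read 314 to 724 CPM, the ERF line 309 to 373 CPM and the reference line 487 to 515 CPM.

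**Figure D4:**
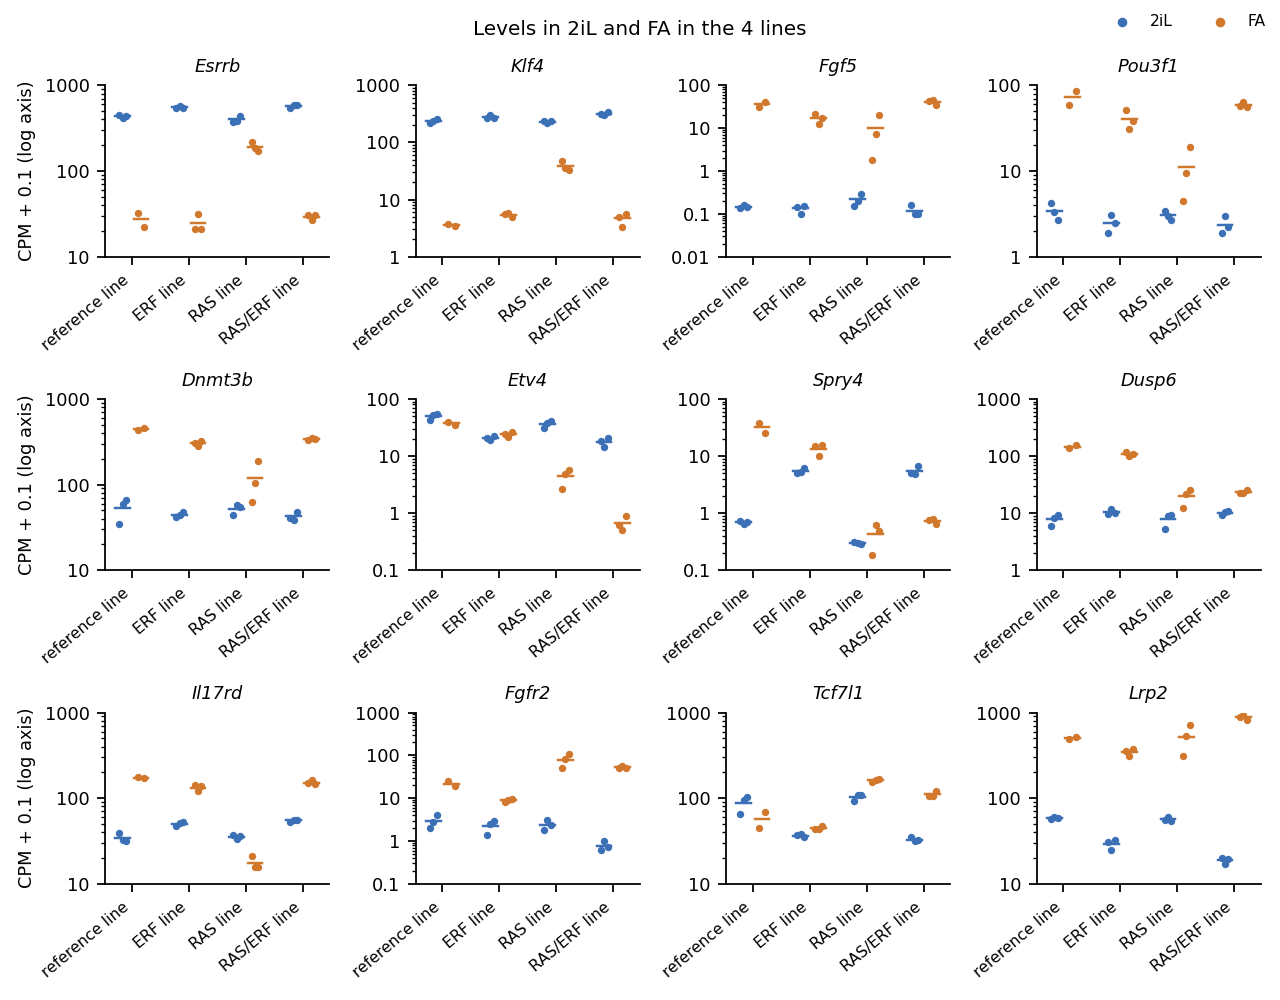
CPM plus 0.1 on log axes in 2iL and FA for 12 genes in the 4 lines, 1 panel per gene; points are single libraries and short bars are group means. In FA, Klf4 ends at 38 CPM in the RAS line and at 4.56 CPM in the RAS/ERF line, and Dusp6 ends at 23.5 CPM in the RAS/ERF line and 110 CPM in the ERF line.

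The called genes were shared with the other lines to different extents. Of the 2958 genes that rose, 1283 also rose in the RAS line (43.4% of those in the RAS/ERF line and 63.2% of the RAS line's), 1776 in the ERF line (60% and 71.1%) and 1804 in the reference line (61.0% and 67.0%). Of the 2118 that fell, 768 fell in the RAS line (36.3% and 57.2%), 1116 in the ERF line (52.7% and 73.5%) and 1314 in the reference line (62.0% and 59.7%). Genes called in opposite directions were few with the ERF line (10 that rose and 9 that fell here) and with the reference line (36 and 34), and 32 and 49 with the RAS line. The lines called different numbers of genes in all, and the shares depend on these totals. The RAS line called 3371 (16.5%; 9.96% higher, 6.59% lower), the ERF line 4018 (19.7%; 12.3% higher, 7.46% lower) and the reference line 4891 (24%; 13.2% higher, 10.8% lower). The reference line had 2 FA libraries, so its calls rest on fewer samples.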

How the data were processed

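RNA from mouse embryonic stem cells was sequenced in 23 libraries, of which the 6 of the RAS/ERF line carry the main comparison. Per the labels' protocols, ribosomal RNA was removed, libraries were strand-specific and reads were 75 bp pairs. The submitters' processing notes name bcl2fastq 2.20.0, fastp 0.20.0, Salmon and the build mm10; the version of Salmon and its library-type setting are not given in the sources used here. For each library the authors deposited estimated counts, TPM and effective length per gene symbol, per the file headers, and for all libraries together a matrix of counts. The deposited counts equal the rounded estimated counts (0 cells differ). Salmon shares reads among similar transcripts, so close paralogs are less certain. The deposited TPM values are scaled to gene length and served only for comparing levels between genes.

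The test was edgeR 4.0.16, run in R 4.3.3 on rounded counts (filterByExpr, TMM, robust quasi-likelihood), fitted over all 23 libraries with each group as its own coefficient. Responses of 2 lines were compared as a difference of differences. Standard errors are the absolute log2 change divided by the square root of F. CPM values were computed from the counts and the TMM-scaled library sizes. A gene at or under 3 counts over a group's libraries is given as a ratio with a counting interval, which covers counting error only, because no molecular identifiers are named in the labels. On simulated data with 19368 genes, 93% of genes changed 2-fold passed the adjusted p and 48% were called, and 100% of genes changed 4-fold were called. The changed genes were few and were drawn from well-counted ones, with a spread set by the fitted trend. These shares therefore do not cover genes with low counts. The chi-square per degree of freedom between replicates of the RAS/ERF line was 5.26 to 13.3, and 3.04 to 44.9 in the other lines. Replicates thus spread beyond counting error, which does not show that they were separate cultures. Every library counted as 1 replicate.

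The rule for naming took Erf, Hras and Nras (another targeted gene is not reported here), any member of the gene lists, and genes leading by fold change or adjusted p among called genes with CPM ranges that do not overlap, predicted genes, pseudogenes and histone genes passed over; genes with the largest fold changes or differences also needed a mean of 10 CPM in the highest group. Which list members to print was decided with their values known. The comparison, its members and the lists were chosen with earlier results of these data known. Some genes, such as Fgf5, Fgf15, Dnmt3a, Tet2, Cdh2 and Grhl2, belong to several lists, so the lists are not separate evidence. Alternatives were other scaling (DESeq2 1.42.0's test, RLE), no filter on low counts, no fold minimum, an effective length offset, Gm26917 removed, only the groups compared, the replicate block, and each replicate left out. Promoter sequences are from RefSeq on GRCm38.p6; 12852 tested genes matched a window by symbol.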

Additional observations from a re-analysis of the deposited data

Results flagged for a closer look

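Each value here is a difference between the FA response of the RAS/ERF line and that of another line, tested as an interaction with edgeR's quasi-likelihood test, and group means are in CPM. Against the RAS line 2308 genes differed. Oasl2, an interferon-induced gene, had a fitted difference of 7.44, which cannot be read as a size because its 2iL libraries in the RAS/ERF line held 3 counts (ratio of FA to 2iL 436, 95% counting interval 149 to 2.11e+03). It went from 0.87 to 1.95 CPM in the RAS line and from 0.06 to 26.0 CPM in the RAS/ERF line. Wt1, a zinc-finger factor, differed by 5.201, the secreted growth-factor binder Igfbp5 by 4.90, Plac9b by 4.45 and the giant cadherin Fat3 by 4.44. H19, an imprinted noncoding RNA, differed by -7.05. It reached 151 CPM in FA in the RAS line and 112 CPM in the reference line, but 2.42 CPM in the RAS/ERF line and 4.93 CPM in the ERF line. Gprc5a differed by -5.33, Aqp3 by -4.82, Tbx3 by -4.72 and the junction gene Jam2 by -4.41.

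Against the ERF line 936 genes differed. Fgfr2 differed by 4.25, Fgf8 by 4.02 and the RAS exchange factor Rasgrp3 by 3.55. The call for Fgf8 was lost without 2iL replicate 1 (adjusted p = 0.0542) or replicate 3 (adjusted p = 0.0504) of the ERF line in edgeR, and that for Rasgrp3 with the effective length offset (difference 2.80, edgeR adjusted p = 0.057). The ERK target Etv4 differed by -5.15, the ephrin receptor Epha1 by -4.44 and Spry4 by -4.39.

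Against the reference line 1538 genes differed. Spic differed by 4.36, Tinagl1 by 4.30 and Prr5l by 3.99. Cubn (cubilin), an endocytic receptor of visceral endoderm, differed by -9.71: it went from 0.07 to 248 CPM in the reference line and from 1.2 to 4.40 CPM in the RAS/ERF line. Spry4 differed by -8.82 and Epha1 by -8.80.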

How the results depend on the processing

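With no 2-fold minimum, the genes past the adjusted p in edgeR were 11353 in all, 5768 higher and 5585 lower, against 5076, 2958 and 2118 with it, and the differences in response numbered 5375 against the RAS line, 2669 against the ERF line and 3640 against the reference line. No other alternative moved these counts by over 1.5 times. Leaving out 1 replicate at a time gave 4785 to 5024 genes (2749 to 2951 higher, 2019 to 2176 lower), and differences of 2078 to 2509 against the RAS line, 650 to 1021 against the ERF line and 1290 to 1775 against the reference line. The other whole-table settings gave 4362 to 5604 genes, lowest in a fit of only the groups compared and highest without the low-count filter. Same-numbered FA and 2iL libraries of the line deviated together only weakly, with r across genes of 0.07, 0.05 and 0.08, although each correlated best with its own number. The labels tie them only by number, so no pairing was assumed. Chromosome 11 stood apart in replicate 1 of both media. Its median log2 level lay 0.084 above the other 2 libraries in 2iL and 0.054 above them in FA. Both were the highest of the chromosomes compared, and whether these libraries share a culture was not tested. With the replicate block, fitted on only the groups compared, 4393 genes were called, and the differences numbered 2328, 1349 and 1217 against the RAS, ERF and reference lines. Of the named genes in the main comparison, Nras, Spry1 and Fgf4 changed sign. Nras went from -0.38 to 0.049 with the effective length offset and to between -0.89 and 0.26 with 1 replicate left out (0.26 without 2iL replicate 1). Spry1 went from -0.06 to between -0.14 and 0.008 with 1 left out (0.008 without FA replicate 1), and Fgf4 from -0.04 to between -0.18 and 0.048 (0.048 without 2iL replicate 2). All 3 stayed uncalled, and the cause was not tested. Smad6 dropped under 2-fold in 4 settings and Il6st passed it in 3; of the 127 genes followed through these alternatives, no other changed its call. The median of the mesoderm and definitive endoderm list turned from 0.66 to -0.74 in the fit of only the groups compared. Depth limits genes at or under 3 counts in a group, whose fitted changes depend on the prior count.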

Other observations

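Xist was near its floor in 2iL in all 4 lines, at 0.06 to 0.21 CPM. In FA it averaged 19.2 CPM in the RAS/ERF line, 12.3 CPM in the ERF line, 14.1 CPM in the reference line and 2.61 CPM in the RAS line. The difference in response from the RAS line was not called (edgeR adjusted p = 0.0635).

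By gene class, 261 of 1267 tested unconfirmed transcripts (TEC) rose in the RAS/ERF line and 51 fell, with a median log2 change of 0.43, against 2237 higher and 1708 lower among 15486 protein-coding genes with a median of -0.01. Such transcripts often overlap other genes, and the part of read sharing in this lean was not tested. On the per-length scale the highest row in FA was the noncoding RNA Rn7s1, at 1.66e+05 ± 7.96e+03 TPM in FA and 1.85e+05 ± 1.01e+04 TPM in 2iL (SD, n = 3), so small structural RNAs take a large part of every TPM total.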
